A study of Arabidopsis thaliana with 6 samples.

Results

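WRKY genes encode plant transcription factors, and the 71 genes whose name in the deposited tables is WRKY followed by a number alone were taken, of 33557 genes in each table. They were followed in roots of 10-day-old *Arabidopsis* plants grown with 10 mM nitrate. The 3 *CEPDL2ox* libraries came from transgenic plants that carry *CEPDL2*, a gene for a phloem-mobile peptide of the shoot, under the 35S promoter of cauliflower mosaic virus (genotype 35S:CEPDL2). The 3 WT libraries came from untransformed plants of the Col ecotype (genotype Wild type). Both groups had the same age, tissue and nitrate supply, and the number of independent transgenic lines behind the *CEPDL2ox* libraries is not given in the sources used here. The 35S promoter is active in most plant tissues, roots included. The study's methods state that its experiments were run in independent biological replicates, while the labels do not tie the libraries to separate cultures. The p-values measure the spread between these samples.

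WRKY proteins bind DNA through the WRKY domain, a conserved heptad of residues followed by a zinc finger. The motif they recognize, the W-box, also occurs upstream of many WRKY genes, and members regulate each other. The family is sorted by its domains into group I, with a pair of WRKY domains, group II, with one domain and divided into subgroups IIa to IIe, and group III, whose zinc finger is of the C2HC type. Members are known for salicylate-dependent immunity, for leaf senescence, for the response to phosphate starvation, for abscisic acid signalling, and for the development of trichomes, seeds and embryos. Kinases of the MAPK cascades phosphorylate several of them, and VQ proteins bind others. *RRS1*, a resistance gene that carries a WRKY domain and is also known as *WRKY52*, is listed under another name and lies outside the set.

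The coding stretches that give the family its name are shown for the members described first below, because they show the shared core on which the set rests. Capitals mark the codons of the conserved heptad, and the lower case letters are the 9 coding bases on either side. All were read 5′ to 3′ on the coding strand from the TAIR10.1 genome of RefSeq, at chr4:12393125-12393163 (minus strand) for *WRKY53*, chr5:10678043-10678081 (minus) for *WRKY74*, chr1:24848804-24848842 (plus) for *WRKY63*, chr5:4150777-4150815 (minus) for *WRKY75*, chr3:26986-27024 (plus) for *WRKY58* and chr3:20909751-20909789 (minus) for *WRKY70*. *WRKY58* is of group I, and its second heptad is shown.
WRKY53: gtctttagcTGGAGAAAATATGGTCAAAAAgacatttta
WRKY74: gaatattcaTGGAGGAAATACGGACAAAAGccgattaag
WRKY63: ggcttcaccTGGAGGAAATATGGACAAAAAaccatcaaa
WRKY75: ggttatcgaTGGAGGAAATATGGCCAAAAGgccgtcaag
WRKY58: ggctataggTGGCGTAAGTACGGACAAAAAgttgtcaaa
WRKY70: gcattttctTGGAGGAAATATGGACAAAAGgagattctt
The capitals encode the same heptad in all 6, while the codons and the flanking bases differ. Translated from TAIR10.1, 68 of the 71 members held the exact heptad, and the exceptions were *WRKY50*, *WRKY51* and *WRKY59*. A pair of exact heptads was found in 12 members, all of group I, which has 14. The C2HC zinc finger was found in the 13 members of group III and in no member of another group.

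The libraries were compared as FPKM, fragment numbers scaled by transcript length and by the mapped reads of the library, which allows levels to be compared between genes per length. Steps between low values put the depth at about 5139000 to 5523000 reads in *CEPDL2ox* and 5884000 to 6273000 reads in WT libraries, so that 1 FPKM on a transcript of 1 kb rests on 4.11 to 5.02 reads. *CEPDL2* itself had 7948, 8838 and 8337 FPKM in *CEPDL2ox*, against 3.27, 5.78 and 9.45 FPKM in WT. The 9 root markers were above 0 in every library. The summed level of 13 markers of aerial tissue was 72 to 147 FPKM in *CEPDL2ox*, against 1903 FPKM in WT replicate 1 and 140 to 192 FPKM in the other WT libraries. WT replicate 1 held the highest value of 10 of these 13, and none was listed at 0 there. *CAB2*, *MUTE* and *GL1* were listed at 0 in every other library. WT replicate 1 stood above 2 times every other library in 300 of the 19597 genes tested, against 16 to 42 genes for each of the other libraries, and no WRKY gene was among the 300. The counts of members that rose are therefore also given without this library. In bulk samples such as these, fewer cells of a type and less RNA per cell cannot be told apart.

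More WRKY genes were higher than lower in *CEPDL2ox* roots. Of the 71 members, 58 averaged 1 FPKM or more across the 6 libraries and were tested, 13 were not, and *WRKY12*, *WRKY64*, *WRKY66* and *WRKY68* were listed at 0 throughout. In limma on log2(FPKM + 1), adjusted over all 19597 genes tested, 9 members rose with an adjusted p under 0.05 and 0 fell, against 3.71% of all tested genes that rose and 2% that fell. At an unadjusted p under 0.05, 20 members were higher and 3 lower. The share of all tested genes at that unadjusted threshold was not counted, so these numbers cannot be set against it. With a log2 fold change above 1 as well, 4 members were called higher and 0 lower, against 1.16% and 0.424% of all tested genes. These thresholds are those of the study, but the test is not, and the study reported nearly equal numbers of genes up and down. The 4 were *WRKY53*, *WRKY74*, *WRKY63* and *WRKY75*, and the other 5 that rose were *WRKY58*, *WRKY70*, *WRKY54*, *WRKY33* and *WRKY6*. Without WT replicate 1, 4 rose (*WRKY75*, *WRKY58*, *WRKY70* and *WRKY74*) and 2 were called higher (*WRKY75* and *WRKY74*). Of all 19597 genes tested, 192 were called higher and 72 lower in that fit. Fold changes on this scale understate those of genes near 1 FPKM. Of the tested members, 4 had a WT mean under 1 FPKM and passed the filter through *CEPDL2ox* alone (*WRKY28*, *WRKY30*, *WRKY38* and *WRKY59*), and none passed the other way.

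The log2 fold changes of the 58 members, *CEPDL2ox* over WT, ran from -0.42 (*WRKY31*) to 1.74 (*WRKY53*), with a median of 0.18, beside a median of -0.03 over all genes tested. They were above 0 in 45 members (77.6%), against 45.5% of all tested genes. The 45 include *WRKY28*, *WRKY30*, *WRKY38* and *WRKY59*, which passed the filter through *CEPDL2ox* alone. With no filter, 49 of 67 members were above 0 and 18 below it, with a median of 0.15. The median over all 23532 genes of that fit was -0.02, and their share above 0 was not counted. The values of the groups did not overlap in 22 members that were higher in *CEPDL2ox* and in 5 that were lower, against 13.8% and 16.1% of all tested genes. *WRKY38* and *WRKY59* are among the 22. Without WT replicate 1, 42 members had a log2 fold change above 0 (median 0.15, against 45.5% of all tested genes above 0), and the values did not overlap in 23 that were higher and 6 that were lower, against 17.3% and 21.3% of all tested genes. For one gene, with 3 libraries against 3, the smallest p an exact permutation test (two-sided) allows is 0.1. The summed FPKM of the 71 members was 1418, 1446 and 1450 in *CEPDL2ox*, against 1179, 1202 and 1282 in WT, and the sums did not overlap. As a share of all FPKM of the library, the sums were 0.131, 0.126 and 0.134% in *CEPDL2ox*, against 0.112, 0.119 and 0.122% in WT. These shares did not overlap either, but the groups lay nearer to each other.

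**Figure D1:**
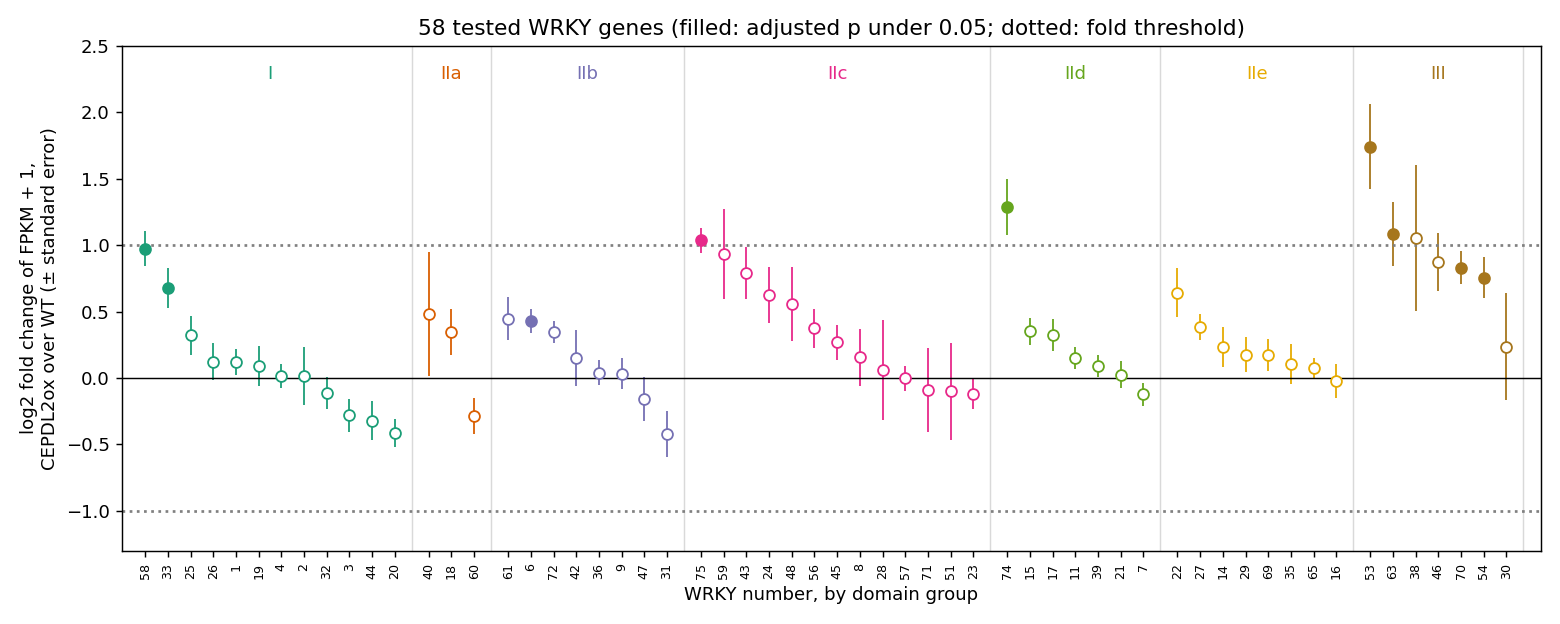
Log2 fold change of FPKM + 1 (*CEPDL2ox* over WT, y axis) of the 58 tested WRKY genes, sorted by domain group (x axis), with bars for the standard error. Filled points are the 9 genes with an adjusted p under 0.05 in limma and dotted lines are at log2 fold changes of 1 and -1. The 7 tested members of group III lie above 0, of which *WRKY30* and *WRKY38* passed the filter only through *CEPDL2ox*, and no filled point lies below 0 in any group.

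By its median fold change, group III stood highest among the domain groups. Over all tested genes 3.71% rose in the fit with all 6 libraries and the filter. This share stands beside each count of risen members from that fit in a group or list below. For fits with a library left out or with no filter, the share of all genes that rose was not counted. Of the 13 members of group III 7 were tested, and 4 of them rose (*WRKY53*, *WRKY63*, *WRKY70* and *WRKY54*). Without WT replicate 1, only *WRKY70* of these passed. The 7 tested had log2 fold changes above 0, with a median of 0.87, but *WRKY30* and *WRKY38* among them passed the filter only through *CEPDL2ox*, and *WRKY55*, which was lower in *CEPDL2ox*, was left out by the filter. With no filter, 11 members could be fitted, of which 2 rose (*WRKY53* and *WRKY70*), and 10 had a log2 fold change above 0 and 1 below it (median 0.76). The 6 members not tested had a mean under 1 FPKM. Group III is also the group with the lowest levels in these roots, with a median WT mean of 0.762 FPKM over its 13 members.

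*WRKY53* (AT4G23810, TAIR10 chr4:12390167-12393982), a promoter of leaf senescence, had the highest fold change of the family. It had 8.40, 9.39 and 11.99 FPKM in *CEPDL2ox*, against 2.96, 3.51 and 0.905 FPKM in WT. Every *CEPDL2ox* library was above every WT library, and WT replicate 3 was lowest by a wide margin. The ratio of means was 4.04, and the log2 fold change was 1.74 ± 0.32 (SE, n = 3 each, adjusted p = 0.0233 in limma). On the estimated read scale this is 61, 68 and 81 reads in *CEPDL2ox*, against 23, 29 and 7 reads in WT. Leaving out 1 library ended the call in 4 of 6 fits (adjusted p = 0.0593 to 0.085 in limma), namely those without WT replicate 1 or any one *CEPDL2ox* library. Without WT replicate 3, the log2 fold change was 1.36.

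The table span of *WRKY53* also holds its neighbour *HMGB6*, a gene for a chromatin protein on the opposite strand, and the library kit does not mark strand. In TAIR10.1 the genes overlap by 341 bases, and 16.6% of the 75-base windows of the *WRKY53* transcript lie in *HMGB6* as well. *HMGB6* had 58.7, 55.8 and 57.9 FPKM in *CEPDL2ox*, against 71.6, 71.7 and 65.4 FPKM in WT. Its values were lower in every *CEPDL2ox* library, the direction opposite to that of *WRKY53* (log2 fold change -0.27, adjusted p = 0.0741 in limma). How the counting divided reads in the overlap was not tested.

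*WRKY70* and *WRKY54*, a closely related pair that acts in salicylate signalling and delays leaf senescence, both rose. *WRKY70* (AT3G56400) had 23.3, 25.5 and 30.99 FPKM in *CEPDL2ox*, against 13.2, 15.2 and 14.9 FPKM in WT. It was the most abundant member of group III, and its log2 fold change was 0.83 ± 0.12 (SE, adjusted p = 0.0104 in limma). *WRKY54* (AT2G40750) had 11.9, 10.06 and 9.41 FPKM in *CEPDL2ox*, against 5.20, 7.01 and 5.23 FPKM in WT. The groups did not overlap in either gene, and the log2 fold change of *WRKY54* was 0.76 ± 0.15 (SE, adjusted p = 0.0309 in limma). *WRKY70* passed whichever library was left out, and *WRKY54* in 1 of these 6 fits. *WRKY54* also missed the threshold with no filter on low values (adjusted p = 0.0538 in limma).

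*WRKY46*, which acts together with *WRKY54* and *WRKY70* in growth and drought responses, lay just outside the threshold. It had 2.48, 3.38 and 4.19 FPKM in *CEPDL2ox*, against 1.65, 1.25 and 1.16 FPKM in WT. The groups did not overlap and the ratio of means was 2.47, on 14 to 22 estimated reads in *CEPDL2ox* and 7 to 10 in WT (log2 fold change 0.87 ± 0.22, SE, adjusted p = 0.0603 in limma). *WRKY63* (AT1G66600), also named *ABO3* and known for abscisic acid responses and drought tolerance, had 7.92, 8.79 and 4.86 FPKM in *CEPDL2ox*, against 2.11, 3.73 and 2.66 FPKM in WT. The groups did not overlap, with *CEPDL2ox* replicate 3 nearest to WT. Its log2 fold change was 1.08 ± 0.24 (SE, adjusted p = 0.0442 in limma), and it passed in only 1 fit of 6 with a single library left out, that without *CEPDL2ox* replicate 3. It also missed the threshold with no filter, with a filter at 5 FPKM and with no intensity trend (adjusted p = 0.0694, 0.0523 and 0.0643 in limma).

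**Figure D2:**
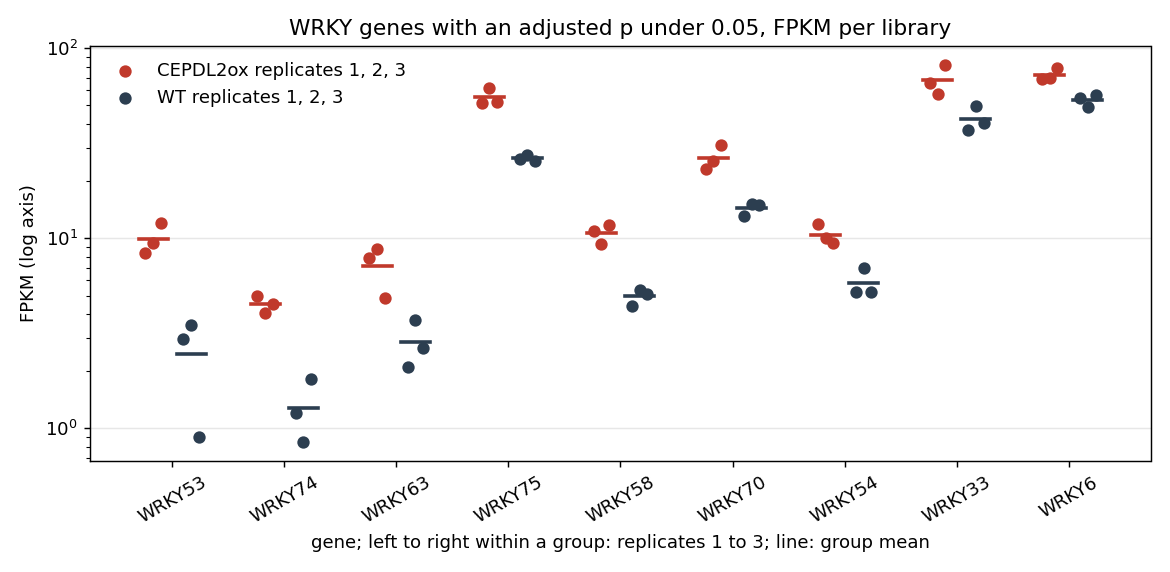
FPKM (y axis, log scale) of the 9 WRKY genes with an adjusted p under 0.05 in limma, sorted by fold change, for *CEPDL2ox* replicates 1 to 3 (red) and WT replicates 1 to 3 (dark blue), with lines at the group means. No *CEPDL2ox* point of a gene lies as low as its highest WT point, and the widest spread within a group on this axis is that of *WRKY53* in WT (0.905 to 3.51 FPKM).

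Of the 12 tested members of group I, 2 rose (1, *WRKY58*, without WT replicate 1), 8 had a log2 fold change above 0 and the median was 0.05. *WRKY58* (AT3G01080), known as a negative regulator of systemic acquired resistance, had 10.98, 9.32 and 11.8 FPKM in *CEPDL2ox*, against 4.42, 5.35 and 5.07 FPKM in WT. The groups were well apart. The log2 fold change of 0.97 ± 0.13 (SE, adjusted p = 0.0076 in limma) lay just under the fold threshold although the ratio of means was 2.16, and it passed 1 with a pseudocount of 0.1 (1.10). It kept an adjusted p under 0.05 whichever library was left out.

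*WRKY33* (AT2G38470), a substrate of MPK3 and MPK6 that drives camalexin synthesis and resistance to necrotrophic fungi, was among the more abundant members. It had 65.9, 57.5 and 81.8 FPKM in *CEPDL2ox*, against 36.9, 49.5 and 40.6 FPKM in WT. The lowest *CEPDL2ox* and the highest WT library were close, and the log2 fold change was 0.67 ± 0.15 (SE, adjusted p = 0.0446 in limma). It lay nearest to the threshold of the 9 that rose and passed in no fit with 1 library fewer (adjusted p = 0.055 to 0.133 in limma). It also missed the threshold with no filter, with the same sum without *CEPDL2*, with quantile normalization and with no intensity trend (adjusted p = 0.0682, 0.0774, 0.0512 and 0.0828 in limma). Its gene end overlaps AT2G38480 by 26 bases, and that gene had at most 6.84 FPKM in any library.

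Within subgroup IIc, the median log2 fold change was 0.27 over 13 tested members, of which *WRKY28* and *WRKY59* passed the filter through *CEPDL2ox* alone. With no filter the median was 0.11 over 16 members. Of the 13 tested members, 1 rose. This was *WRKY75* (AT5G13080, TAIR10 chr5:4149740-4151150), which acts in phosphate starvation responses, root hair growth and leaf senescence. *WRKY75* had 51.8, 61.7 and 52.2 FPKM in *CEPDL2ox*, against 26.2, 27.5 and 25.4 FPKM in WT. The WT values were tight and every *CEPDL2ox* library lay far above them. The log2 fold change was 1.04 ± 0.09 (SE, adjusted p = 0.00137 in limma, the lowest of the family) and the ratio of means was 2.096. An adjusted p under 0.05 was kept whichever library was left out, but the fold change lay under the threshold of 1 without *CEPDL2ox* replicate 2 (0.95) and with libraries scaled to the same sum without *CEPDL2* (0.96). Beside *WRKY75*, 2 of the 9 root markers, the root hair genes *RHD6* and *EXPA7*, were higher in *CEPDL2ox* (log2 fold changes 0.73 and 0.44, adjusted p = 0.0341 and 0.0265 in limma). *COBL9*, another root hair gene among the 9, did not pass the test (log2 fold change 0.09, adjusted p = 0.616 in limma). The part of root hair cells in the result was not tested.

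*WRKY75* belongs to a list of 4 WRKY genes known for phosphate, and 2 of the 4 rose, of which *WRKY75* alone passed without WT replicate 1. *WRKY6* (AT1G62300, subgroup IIb), which represses the phosphate exporter gene *PHO1* and acts in senescence, had 68.6, 69.6 and 79.1 FPKM in *CEPDL2ox*, against 55.02, 49.2 and 56.7 FPKM in WT. The groups did not overlap, and the log2 fold change of 0.43 ± 0.09 (SE, adjusted p = 0.0377 in limma) was the smallest of the 9. It passed in no fit with 1 library fewer (adjusted p = 0.0691 to 0.0987 in limma), nor with the same sum without *CEPDL2* or with no intensity trend (adjusted p = 0.0721 and 0.0779 in limma). *WRKY45*, an activator of the phosphate transporter gene *PHT1;1*, had 24.6, 32.1 and 23.2 FPKM in *CEPDL2ox*, against 19.9, 22.6 and 22.9 FPKM in WT, groups that nearly touch (log2 fold change 0.27, adjusted p = 0.269 in limma). *WRKY42*, which regulates both *PHO1* and *PHT1;1*, had 1.43, 1.96 and 1.82 FPKM in *CEPDL2ox*, against 1.46, 1.72 and 1.22 FPKM in WT, and the groups overlapped (log2 fold change 0.15, adjusted p = 0.704 in limma).

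The phosphate transporter gene *PHT1;1* had 142, 168 and 142 FPKM in *CEPDL2ox*, against 108, 102 and 110 FPKM in WT. The groups did not overlap (log2 fold change 0.49 ± 0.09, SE, adjusted p = 0.0196 in limma). *PHO1* had 73.7, 63.4 and 61.2 FPKM in *CEPDL2ox*, against 60.5, 72.8 and 63.6 FPKM in WT, and its groups overlapped (log2 fold change 0.01).

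The nearest gene outside the adjusted p threshold was *WRKY72*, of subgroup IIb, with 29.1, 29.6 and 30.05 FPKM in *CEPDL2ox*, against 23.1, 24.7 and 21.7 FPKM in WT. Its groups were apart by a small margin (log2 fold change 0.34 ± 0.08, SE, adjusted p = 0.0568 in limma), and the other 6 members of IIb beside it and *WRKY6* had log2 fold changes of -0.42 to 0.45.

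Subgroup IIc also held members outside the threshold with high ratios. *WRKY43* had 19.2, 18.1 and 19.5 FPKM in *CEPDL2ox*, against 12.6, 7.25 and 12.7 FPKM in WT. *WRKY24* had 24.3, 18.6 and 17.8 FPKM in *CEPDL2ox*, against 17.1, 9.31 and 12.6 FPKM in WT. In both, WT replicate 2 was lowest and the groups did not overlap, with log2 fold changes of 0.79 (adjusted p = 0.059 in limma) and 0.63 (adjusted p = 0.129 in limma). *WRKY59* had 2.22, 1.78 and 1.43 FPKM in *CEPDL2ox*, against 0, 0.391 and 1.25 FPKM in WT. These rest on 5, 4 and 3 estimated reads in *CEPDL2ox* and on 0, 1 and 3 in WT, so the log2 fold change of 0.93 ± 0.34 (SE, adjusted p = 0.153 in limma) depends on the pseudocount, and it was 2.22 with a pseudocount of 0.1. *WRKY23*, which acts downstream of auxin in embryo and root development, was slightly lower, with 6.80, 6.49 and 6.38 FPKM in *CEPDL2ox*, against 6.95, 7.02 and 7.70 FPKM in WT (log2 fold change -0.12, adjusted p = 0.563 in limma).

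Subgroup IId, whose proteins also carry a calmodulin-binding domain, had 7 tested members, of which 1 rose and 6 had a log2 fold change above 0 (median 0.15). *WRKY74* (AT5G28650, TAIR10 chr5:10677716-10679204) had 4.99, 4.03 and 4.49 FPKM in *CEPDL2ox*, against 1.20, 0.849 and 1.81 FPKM in WT. The groups were far apart on 25 to 31 estimated reads in *CEPDL2ox* and 6 to 12 in WT. Its ratio of means was 3.50 and its log2 fold change 1.28 ± 0.21 (SE, adjusted p = 0.0151 in limma). It stayed past both thresholds without any one WT library and missed the adjusted p without any one *CEPDL2ox* library (0.0514 to 0.0727 in limma). The other 6 members of IId had higher levels, with log2 fold changes of -0.12 to 0.35.

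**Figure D3:**
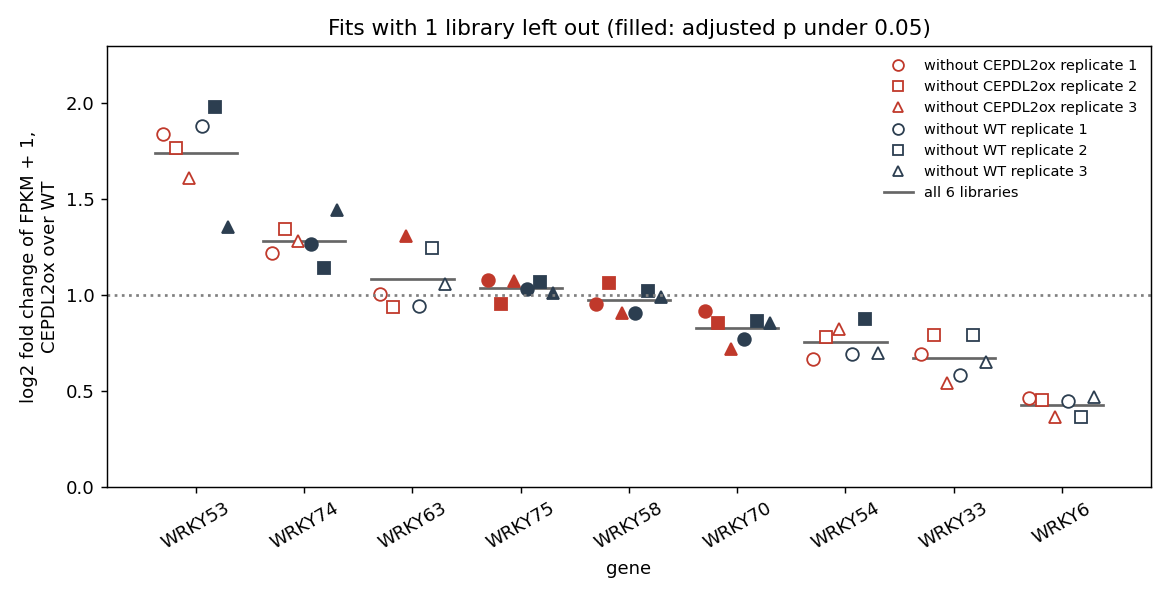
Log2 fold change of FPKM + 1 (*CEPDL2ox* over WT, y axis) of the 9 WRKY genes that rose (x axis), in fits with 1 library left out: a *CEPDL2ox* library (red) or a WT library (dark blue), with circles, squares and triangles for replicates 1, 2 and 3 and grey lines for all 6 libraries. Symbols are filled where the adjusted p was under 0.05 in limma: all 6 for *WRKY75*, *WRKY58* and *WRKY70*, 3 for *WRKY74*, 2 for *WRKY53*, 1 each for *WRKY63* and *WRKY54*, and none for *WRKY33* and *WRKY6*.

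None of the 8 tested members of subgroup IIe rose, although 7 had a log2 fold change above 0 (median 0.18). *WRKY22* and *WRKY29* act downstream of the MAPK cascade that responds to bacterial flagellin. *WRKY22* had 7.29, 6.77 and 8.60 FPKM in *CEPDL2ox*, against 5.31, 3.28 and 5.004 FPKM in WT, without overlap (log2 fold change 0.64 ± 0.18, SE, adjusted p = 0.0854 in limma). *WRKY29* had 74.8, 81.0 and 73.3 FPKM in *CEPDL2ox*, against 65.3, 56.7 and 82.7 FPKM in WT. WT replicate 3 was the highest of all 6 libraries for *WRKY29*, and the log2 fold change was 0.18 (adjusted p = 0.468 in limma).

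The 6 members with the highest WT levels did not pass the test. *WRKY65*, of subgroup IIe, stood highest in WT with 152, 149 and 138 FPKM in *CEPDL2ox*, against 149, 134 and 133 FPKM in WT (log2 fold change 0.07, adjusted p = 0.611 in limma). The next in WT were *WRKY11* (80.4 ± 5.33 FPKM in *CEPDL2ox*, against 72.4 ± 4.97 FPKM in WT, SD, n = 3 each), a negative regulator of basal resistance, and *WRKY29* (76.4 ± 4.08 FPKM in *CEPDL2ox*, against 68.2 ± 13.3 FPKM in WT). *WRKY39*, known from heat responses, had 65.3 ± 5.04 FPKM in *CEPDL2ox*, against 61.3 ± 3.18 FPKM in WT. *WRKY69* had 65.5 ± 7.37 FPKM in *CEPDL2ox*, against 57.97 ± 7.52 FPKM in WT. *WRKY36*, a repressor of the light-signalling gene *HY5*, had 58.9 ± 3.97 FPKM in *CEPDL2ox*, against 57.3 ± 5.40 FPKM in WT. In WT only *WRKY65* stood clear of the next gene, and the other 5 lay within their SDs of their neighbours in this order. The groups overlapped in all 6, with log2 fold changes of 0.04 to 0.18 and adjusted p of 0.335 to 0.834 in limma. Both *WRKY65* and *WRKY36* turned to slightly under 0 when libraries were scaled to the same sum without *CEPDL2*. By *CEPDL2ox* level, *WRKY6* and *WRKY33*, which rose, were also among the 6 highest (72.5 ± 5.77 and 68.4 ± 12.4 FPKM in *CEPDL2ox*, against 53.6 ± 3.96 and 42.3 ± 6.45 FPKM in WT). By mean over all libraries, 5 of the 9 members that rose had a mean of 1 to under 10 FPKM, a class of 26 members, 2 were among the 22 members at 10 to under 50 FPKM, and 2 among the 10 members at 50 FPKM or more. Without WT replicate 1 these counts were 2, 2 and 0.

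A single *CEPDL2ox* library stood apart for part of the family. *CEPDL2ox* replicate 3 held the highest value of 21 of the 58 tested members (36.2%), against 13.99% of all tested genes. *CEPDL2ox* replicates 1 and 2 held the highest value of 10 and 13 members, against 2, 5 and 7 in WT replicates 1 to 3. In 4 members, *CEPDL2ox* replicate 3 was above 2 times every other library, and these were *WRKY40*, *WRKY38*, *WRKY30* and *WRKY48*. Over all tested genes, 42 stood out in this way in that library. Without it, 4 members rose (*WRKY75*, *WRKY58*, *WRKY70* and *WRKY63*) and 2 were called higher (*WRKY75* and *WRKY63*). Of all 19597 genes tested, 187 were called higher and 53 lower in that fit.

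**Figure D4:**
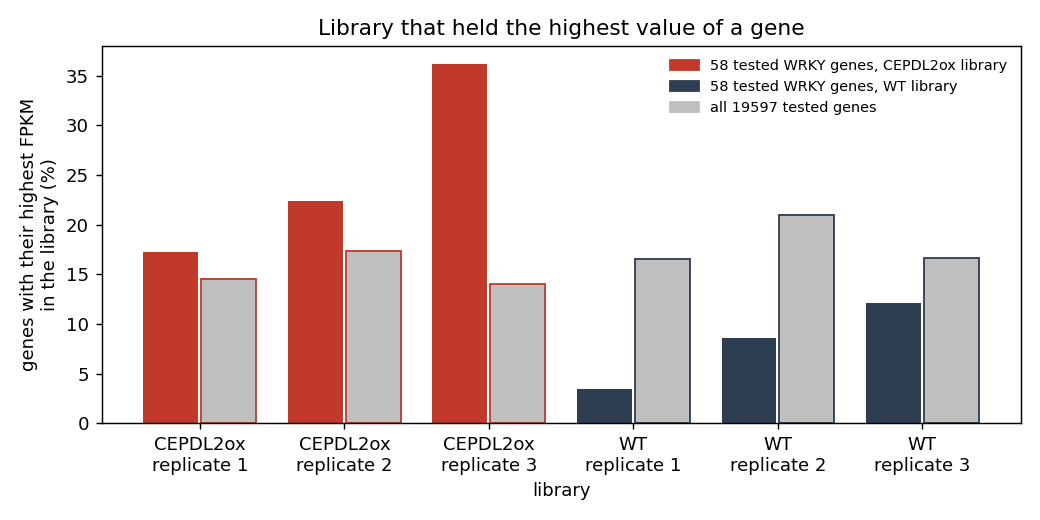
Percentage of genes (y axis) whose highest FPKM lay in each library (x axis), for the 58 tested WRKY genes (red for *CEPDL2ox*, dark blue for WT) and for all 19597 tested genes (grey). The 3 red bars lie above their grey neighbours and the 3 dark blue bars below them, with the highest bar, 36.2%, in *CEPDL2ox* replicate 3.

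*WRKY40*, with *WRKY18* and *WRKY60* the whole of subgroup IIa, is induced rapidly by elicitors and wounding, and the 3 proteins act in defence and abscisic acid signalling. *WRKY40* had 2.00, 2.74 and 10.6 FPKM in *CEPDL2ox*, against 2.38, 3.36 and 2.22 FPKM in WT. *CEPDL2ox* replicate 1 lay just below the WT values and replicate 2 among them, and the log2 fold change of 0.48 ± 0.47 (SE, adjusted p = 0.577 in limma) turned to -0.11 without replicate 3. *WRKY18* had 4.87, 5.05 and 6.71 FPKM in *CEPDL2ox*, against 3.41, 4.74 and 4.24 FPKM in WT, with no overlap (log2 fold change 0.35, adjusted p = 0.27 in limma). *WRKY60* had 13.5, 15.1 and 10.996 FPKM in *CEPDL2ox*, against 14.9, 15.5 and 18.4 FPKM in WT, and *CEPDL2ox* replicate 3 was the lowest library for it (log2 fold change -0.29, adjusted p = 0.257 in limma).

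*WRKY38*, a negative regulator of basal defence in group III, had 0.444, 0.668 and 5.25 FPKM in *CEPDL2ox*, against 0, 0.195 and 0.417 FPKM in WT. These are 2, 3 and 22 estimated reads in *CEPDL2ox* and 0, 1 and 2 in WT. The log2 fold change of 1.05 ± 0.55 (SE, adjusted p = 0.294 in limma) rested on replicate 3 and was 0.38 without it. *WRKY48*, a repressor of basal defence, had 6.25, 5.81 and 12.7 FPKM in *CEPDL2ox*, against 5.09, 3.998 and 5.97 FPKM in WT. *WRKY30*, known from responses to oxidative stress, had 1.16, 0.167 and 2.502 FPKM in *CEPDL2ox*, against 0.932, 0.731 and 0.624 FPKM in WT. In both, the groups overlapped outside replicate 3. The ethylene synthesis gene *ACS6*, known to be induced in stress, was also highest in that library (13.8, 13.3 and 34.4 FPKM in *CEPDL2ox*, against 13.7, 18.2 and 15.9 FPKM in WT). By contrast, *PAD3*, *CYP81F2* and *ICS1*, described below, each had their lowest value in that library (5.46, 5.75 and 3.35 FPKM). What set this library apart was not tested.

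**Figure D5:**
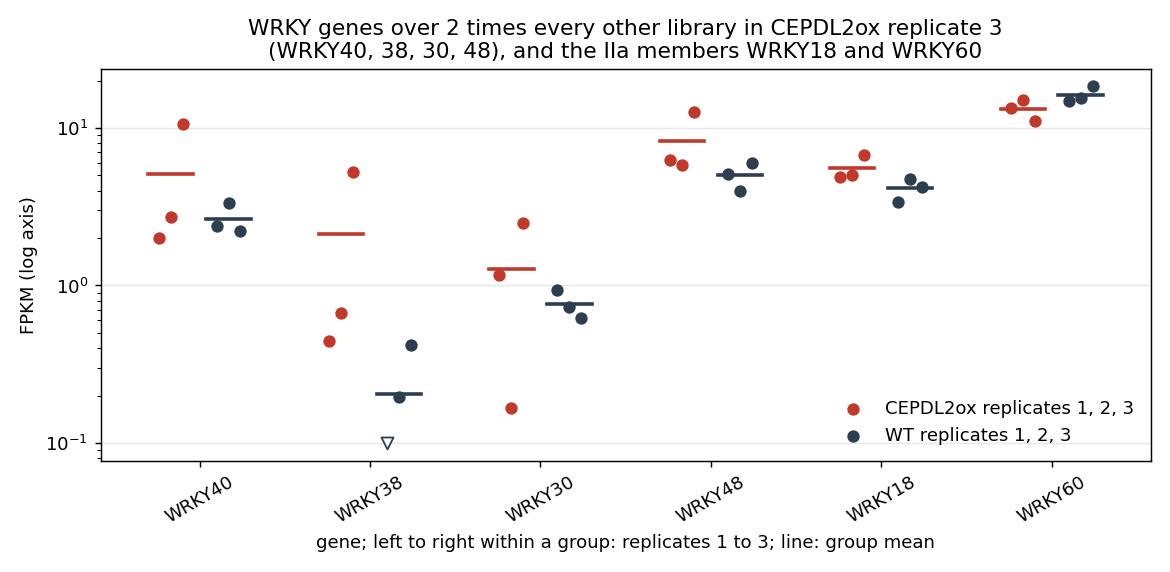
FPKM (y axis, log scale) of *WRKY40*, *WRKY38*, *WRKY30* and *WRKY48*, and of *WRKY18* and *WRKY60*, which complete subgroup IIa, in *CEPDL2ox* replicates 1 to 3 (red) and WT replicates 1 to 3 (dark blue), with lines at the group means. *CEPDL2ox* replicate 3, the right point of each red trio, is far above the rest in the first 4 genes and is the lowest red point of *WRKY60*. The open triangle is *WRKY38* in WT replicate 1, listed at 0 and drawn at 0.1.

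No tested member fell with an adjusted p under 0.05. The nearest was *WRKY20*, of group I, with 30.9, 25.3 and 26.5 FPKM in *CEPDL2ox*, against 38.3, 33.6 and 39.3 FPKM in WT. Its groups did not overlap (log2 fold change -0.41 ± 0.10, SE, adjusted p = 0.0631 in limma). The other tested members whose values were lower without overlap were *WRKY31*, *WRKY3*, *WRKY44* and *WRKY23*, with log2 fold changes of -0.42, -0.28, -0.32 and -0.12. *WRKY44*, also named *TTG2* and known from trichome and seed coat development, had 5.15, 3.83 and 4.82 FPKM in *CEPDL2ox*, against 6.50, 5.55 and 5.88 FPKM in WT. Of the list of 8 members known for development, 4 were tested, none passed the test and 1 had a log2 fold change above 0 (median -0.11).

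The members known for other processes were counted in the same way. In the fit with all 6 libraries and the filter, 3.71% of all tested genes rose and 45.5% were above 0. Of 9 tested members of the leaf senescence list (10 genes), 5 rose (*WRKY53*, *WRKY75*, *WRKY70*, *WRKY54* and *WRKY6*) and 8 had a log2 fold change above 0, with a median of 0.64. Without WT replicate 1, 2 of these rose (*WRKY75* and *WRKY70*). *WRKY30* passed the filter only through *CEPDL2ox*, and *WRKY55*, which was lower in *CEPDL2ox*, was left out by the filter. With no filter, 4 of the 10 rose, 8 had a log2 fold change above 0 and 2 below it (median 0.53). *WRKY53*, *WRKY75* and *WRKY6* are known to promote senescence and *WRKY54* and *WRKY70* to delay it. Of 19 tested members of the salicylate and immunity list (21 genes), 5 rose (*WRKY53*, *WRKY58*, *WRKY70*, *WRKY54* and *WRKY33*) and 17 had a log2 fold change above 0 (median 0.48). Without WT replicate 1, 2 of them rose (*WRKY58* and *WRKY70*). *WRKY28* and *WRKY38* among the 19 passed the filter only through *CEPDL2ox*. With no filter, 3 of the 21 rose, and 18 had a log2 fold change above 0 and 3 below it (median 0.35). Of the 8 members of the abscisic acid and stress list, all tested, 1 rose (*WRKY63*), with a median of 0.23, and 0 rose without WT replicate 1. The lists share members and are known mostly from leaves, so their counts are not independent of each other.

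Genes that act with WRKY proteins were examined as a list of 26, of which 22 were tested. None was called higher, 1 was called lower (*CYP81F2*) and 1 rose under the fold threshold (*PHT1;1*), and the median log2 fold change was -0.02. Of all tested genes, 1.16% were called higher, 0.424% were called lower and 3.71% rose. The 5 MAPK cascade genes *MPK3*, *MPK4*, *MPK6*, *MKK4* and *MKK5* had log2 fold changes of -0.15 to 0.24, and none passed. The 6 partner genes, among them *MKS1*, *SIB1* and *SIB2* for VQ proteins and *HDA19* for a histone deacetylase, had log2 fold changes of -0.42 to 0.35, and none passed. *CYP81F2*, for a P450 enzyme of indole glucosinolate modification, had 9.98, 14.5 and 5.75 FPKM in *CEPDL2ox*, against 22.6, 45.1 and 24.2 FPKM in WT. Every *CEPDL2ox* library was lower (log2 fold change -1.52 ± 0.34, SE, adjusted p = 0.0449 in limma). Neither *CYP81F2* nor *PHT1;1* was followed in the fits with a library left out or with other settings. *PAD3*, the last enzyme of camalexin synthesis and a target of WRKY33, had 11.03, 10.7 and 5.46 FPKM in *CEPDL2ox*, against 9.26, 18.98 and 9.77 FPKM in WT, and the groups overlapped (log2 fold change -0.43, adjusted p = 0.464 in limma). *PR1*, the marker of salicylate responses, was listed at 0 in all 6 libraries, and *ICS1*, for salicylate synthesis, had 4.68, 4.79 and 3.35 FPKM in *CEPDL2ox*, against 5.92, 4.803 and 5.31 FPKM in WT (log2 fold change -0.27, adjusted p = 0.362 in limma).

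The stretches upstream of the genes were searched for the W-box, as TTGACC or TTGACT on either strand, in the 300 bases before the gene start of TAIR10.1. Of the 9 members that rose, *WRKY33*, *WRKY53* and *WRKY75* held it. Their windows are printed 5′ to 3′ on the strand of the gene, with W-box letters in capitals, because they show the number, strand and spacing of the matches. They are chr2:16107935-16108234 (plus strand) for *WRKY33*, chr4:12393983-12394282 (minus) for *WRKY53* and chr5:4151202-4151501 (minus) for *WRKY75*, and the last base of each adjoins the gene start.
WRKY33: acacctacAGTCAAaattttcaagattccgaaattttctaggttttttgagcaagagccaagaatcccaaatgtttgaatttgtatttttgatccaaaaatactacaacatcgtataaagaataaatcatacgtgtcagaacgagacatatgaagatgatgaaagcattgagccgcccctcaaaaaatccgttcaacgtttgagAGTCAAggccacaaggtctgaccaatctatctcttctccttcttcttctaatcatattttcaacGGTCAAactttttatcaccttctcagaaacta
WRKY53: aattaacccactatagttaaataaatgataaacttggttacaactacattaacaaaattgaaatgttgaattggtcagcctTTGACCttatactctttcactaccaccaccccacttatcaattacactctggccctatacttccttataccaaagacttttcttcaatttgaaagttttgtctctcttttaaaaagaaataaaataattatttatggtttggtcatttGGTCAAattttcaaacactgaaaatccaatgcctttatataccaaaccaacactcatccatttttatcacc
WRKY75: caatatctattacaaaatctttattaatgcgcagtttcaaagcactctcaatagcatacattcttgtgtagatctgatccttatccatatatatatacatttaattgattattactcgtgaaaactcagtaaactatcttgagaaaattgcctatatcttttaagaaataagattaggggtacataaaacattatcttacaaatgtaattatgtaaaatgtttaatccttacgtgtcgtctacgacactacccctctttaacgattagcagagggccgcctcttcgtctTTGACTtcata
*WRKY33* held 3 matches, all on the opposite strand, whose first bases lie at -292, -96 and -32 from the start. *WRKY53* held a match on the strand of the gene at -219 and another on the opposite strand at -71. *WRKY75* held 1 on the strand of the gene, at -11. Over the 9 members that rose, 3 windows (33.3%) held a W-box, as did 17 of the 49 other tested members (34.7%). Of the 4 that rose without WT replicate 1, only *WRKY75* held it. Over all 71 WRKY genes it was 29 (40.8%), against 8618 of 26689 protein-coding genes of the tables (32.3%). The share with any match among the members that rose was thus close to that of all genes. Windows with 2 or more matches were found in 2 of the 9 members that rose (22.2%) and in 6 of the 49 others (12.2%). Among all protein-coding genes tested, 7.67% held 2 or more. A match describes letters, not binding.

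Reads could not be shared between members as far as their transcripts show. No 75-base window of a WRKY transcript occurred in another WRKY transcript with at most 2 mismatches. Overlap with other genes concerned 13 members, which overlap a protein-coding gene in TAIR10.1. The widest was *WRKY41*, with 37.95% of its windows inside *HMGB13*, and it was under 1 FPKM and not tested. Of the members named here, *WRKY29* shared 13.4% and *WRKY69* 11.2% of their windows with a neighbour, beside *WRKY53*. For 34 of the 45 members above 0 with at most 200 estimated reads in each library, the 6 estimates lay within 0.2 of whole numbers.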

How the data were processed

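RNA of *CEPDL2ox* and WT roots (3 libraries each) was sequenced by the authors with an unstranded kit (TruSeq RNA v2) as 75-base single-end reads, mapped to TAIR10 with the BaseSpace pipeline and deposited as FPKM per gene, 1 table per library. The quantifying tool and its version are not given in the sources used here. Expression was fitted in R 4.3.3 with limma 3.58.1 (lmFit, eBayes with intensity trend) on log2(FPKM + 1), over the 19597 genes that averaged 1 FPKM or more, with Benjamini-Hochberg adjustment over all of them. Genes with an adjusted p under 0.05 were said to rise or fall, and those with an absolute log2 fold change above 1 as well were called. The fit was tested on simulated data. Reads were estimated from FPKM times transcript length less 200 bases, for transcripts over 600 bases, and cover counting only. Alternatives were a pseudocount of 0.1, no filter, a filter at 5 FPKM, 3 other scalings (median of ratios, the same sum without *CEPDL2*, quantiles), no trend, a fold threshold set on the ratio of means, a replicate block, and each library left out. Named were the members with an adjusted p under 0.05, the 6 highest in WT, those without overlap and an absolute log2 fold change above 0.5, the phosphate list, subgroup IIa, *WRKY23*, *WRKY33*, *WRKY46*, *WRKY53*, *WRKY54*, *WRKY63* and *WRKY70*, and those nearest the thresholds. *WRKY3*, *WRKY30*, *WRKY31*, *WRKY44*, *WRKY48* and the partner genes given beside *PHT1;1* and *CYP81F2* were picked with their values known. The members and lists were chosen with earlier results of these data known. Table coordinates are TAIR10, and sequences and overlaps are from TAIR10.1 of RefSeq, where all 71 members matched by identifier. Python 3.11.15 and pandas 2.3.3 were used for the tables.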

Additional observations from a re-analysis of the deposited data

How the results depend on the processing

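The number of WRKY genes called higher was 4. It was 5 with a pseudocount of 0.1 or quantiles, and 3 with no filter, the same sum without *CEPDL2* or no intensity trend. With the filter at a mean of 5 FPKM it was 2, as *WRKY74* was not tested and *WRKY63* missed the adjusted p (0.0523 in limma). The number that rose was 6 with no filter and 10 with the median of ratios. With a library left out, the number called higher was 1 to 4, and the number that rose was 3 to 7 rather than 9, while 0 fell in these fits. Scaling to the same sum without *CEPDL2* gave 1 member that fell (*WRKY20*), and over all genes 191 called higher and 118 called lower, against 228 and 83. Under it the median log2 fold change over all genes tested was -0.10. Among the named members, the log2 fold changes of *WRKY36* (-0.0388) and *WRKY65* (-0.0065) turned in sign under it. Members not named were not followed there, and how many of the 58 stayed above 0 was not counted. With a library left out the log2 fold change of *WRKY36* ran from -0.0392 to 0.0826 and that of *WRKY40* from -0.11 to 0.86. Only *WRKY75*, *WRKY58* and *WRKY70* had an adjusted p under 0.05 in limma in every fit listed. The replicate numbers did not pair the samples (correlations of deviations -0.03, 0.02 and 0.00), and with the replicate block 4 members were called higher, 7 rose and 0 fell; *WRKY54*, *WRKY33* and *WRKY6* missed the threshold there (adjusted p = 0.0549, 0.0714 and 0.0511 in limma). The cause of these changes was not tested. Depth limits the members near 1 FPKM, which rest on few reads.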

Other observations

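*WRKY55*, a group III gene known to promote leaf senescence, was under the filter and not tested. It had 0.80, 0 and 0 FPKM in *CEPDL2ox*, against 0.996, 1.75 and 2.18 FPKM in WT. The values did not overlap and were lower in *CEPDL2ox*. With no filter on low values its log2 fold change was -1.09 (adjusted p = 0.0938 in limma). *RRS1*, the WRKY domain gene outside the name rule, had 7.24, 5.41 and 5.23 FPKM in *CEPDL2ox*, against 6.47, 5.63 and 6.34 FPKM in WT, with overlap (log2 fold change -0.05, adjusted p = 0.88 in limma).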
